A study of Mus musculus with 24 samples.

Results

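The T-box transcription factors examined here are 9 genes, Tbx1, Tbx2, Tbx3, Tbx4, Tbx5, Tbx15, Tbx18, Tbx20 and Tbx22, chosen by name among the 17 T-box genes and the 56748 genes of the deposited count table. The choice was made with earlier results of these data known, so counts of members called describe these genes only. They were followed by bulk RNA sequencing of the mesenchyme of the mouse mandibular first molar, in 24 libraries that form 8 groups of 3. ICR embryos were used throughout, and the labels name no transgene or deleted gene. At the cap stage (E13), the groups are the undivided mesenchyme (Cap-W), the lingual part (Cap-L) and the buccal part (Cap-B), and at the bell stage (E15) they are Bell-W, Bell-L and Bell-B. In Cap-L+2D and Cap-B+2D, the lingual or the buccal part of the cap stage was kept in vitro for 2 days without the other part. Tooth germs were cut with a fine needle and the mesenchyme was freed with dispase II, and the design text of the series calls the undivided groups whole tooth germs. The sources used here do not tie libraries to embryos or litters, so p-values measure the spread between these libraries, which may be technical.

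T-box factors share a DNA-binding domain, the T-box, and activate or repress genes that pattern limbs, heart and face. Tbx2 and Tbx3, which act mainly as repressors, belong to a subfamily with Tbx4 and Tbx5, while Tbx1, Tbx15, Tbx18, Tbx20 and Tbx22 belong to another, in which Tbx15 and Tbx18 are close relatives that bind corepressors of the Groucho family. In the mouse head, Tbx1 is known from pharyngeal arches, head muscle progenitors and dental epithelium, Tbx22 from palate formation, and Tbx15 from mesenchyme of skin and skeleton. Tbx18 is known from somites, heart and mural cells of vessels. Tbx4 is known from hindlimb and lung, Tbx5 from forelimb and heart, and Tbx20 from heart.

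Libraries held between 20581720 and 39266497 read pairs counted on genes. All 10 markers of dental mesenchyme, among them Pax9, Barx1 and Msx1, were detected above 3 counts in every group, and their summed level was 3196 to 4546 CPM (CPM, counts scaled to a common library size with edgeR's TMM factors over the 24 libraries). Single markers in this sum moved in different directions. Vim was at 1133 to 1197 CPM in Cap-B and 2042 to 2174 CPM in Cap-B+2D. Msx1 was at 473 to 493 CPM in Cap-B and 202 to 217 CPM in Cap-B+2D. Between these groups, 3 of the 10 were called lower in culture and 1 higher. Cap-W replicate 1 and Bell-W replicate 3 stood apart from their own groups, with chi-square values per gene of at least 109 and 49 against the other libraries of the group, where all other pairs gave 1.29 to 11.5. In Bell-W replicate 3, the 10 epithelial markers summed to 2316 CPM against 662 and 598 CPM in the other Bell-W libraries, and the 6 neuronal markers to 141.8 CPM against 20.0 and 22.3 CPM. Markers of other cells moved with side. At the cap stage, skeletal muscle markers were called higher in Cap-B for 12 of 12 tested genes and Schwann and glia markers for 6 of 7, with 1 lower, while markers of epithelium were called lower for 9 of 10, of cartilage for 5 of 5 and of bone for 5 of 5. Pericyte and smooth muscle markers were called higher for 4 and lower for 1 of 9, neuronal ones for 1 and 1 of 4, those of blood and macrophages for 1 and 0 of 6, those of dental mesenchyme for 2 and 0 of 10, and endothelial ones for none of 8 in either direction.

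Of the 9 members, 7 passed the filter on low counts in every comparison, and Tbx5 and Tbx20 passed in none. Compared per kilobase of exon, the mean level in Cap-B was 69.8 CPM per kb for Tbx15, 67.2 for Tbx2, 37.8 for Tbx18, 21.5 for Tbx3, 4.79 for Tbx22, 3.82 for Tbx1 and 1.17 for Tbx4. In Cap-L, Tbx2 led with 39.1 CPM per kb, before Tbx15 with 13.8, Tbx3 with 9.96, Tbx1 with 4.05, Tbx22 with 3.88, Tbx18 with 1.16 and Tbx4 with 0.738. Summed over the 9 members, the level per kilobase was 206 ± 1.00 CPM per kb (SD, n = 3) in Cap-B and 72.6 ± 1.62 in Cap-L. Tbx15 and Tbx18 together made up 52.2% of that sum in Cap-B, 46.9% in Cap-B+2D and 31.3% in Bell-B. In the lingual groups their share was 20.6% in Cap-L, 11.9% in Cap-L+2D and 11.3% in Bell-L, and in the undivided groups it was 18.6% in Cap-W and 1.37% in Bell-W.

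**Figure D1:**
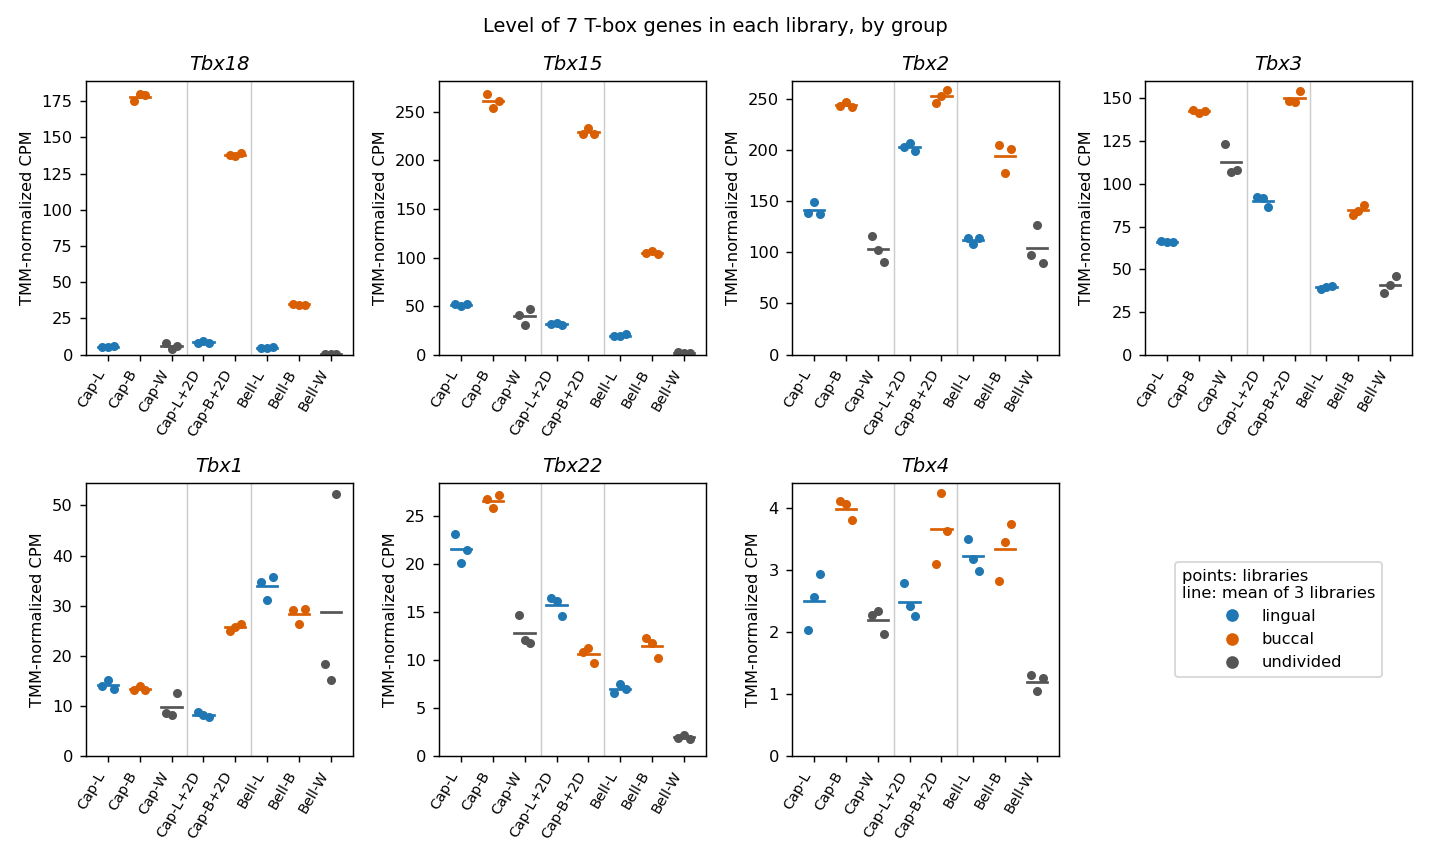
Level of the T-box members in each of the 24 libraries, in TMM-normalized CPM, by group, with a point for each library. Mean Tbx18 and Tbx15 levels were 178 and 261 CPM in Cap-B against 5.48 and 51.6 CPM in Cap-L, and Bell-W replicate 3 carried the highest Tbx1 level, 52.3 CPM.

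Cap-L and Cap-B were compared to find which T-box genes differ along the lingual-buccal axis. Tbx18 showed the widest difference of the tested members. It was measured at 5.11, 5.37 and 5.97 CPM in the Cap-L libraries and at 175, 180.0 and 179.5 CPM in the Cap-B libraries. Every buccal library lay far above every lingual one, with a log2 fold change, buccal over lingual, of 5.05 ± 0.061 (SE, adjusted p = 7.0e-20), a 33.1-fold difference. In bulk samples, fewer cells of a type and less RNA per cell cannot be told apart. Its relative Tbx15 was at 52.3, 50.5 and 51.9 CPM in Cap-L and at 268, 254 and 261 CPM in Cap-B. The groups were again far apart, with a log2 fold change of 2.37 ± 0.046 (adjusted p = 1.8e-17).

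The repressor genes Tbx2 and Tbx3 were also higher in the buccal part, by smaller amounts. Tbx3 was at 66.3, 65.7 and 66.0 CPM in Cap-L and at 144, 141 and 143 CPM in Cap-B, a log2 fold change of 1.14 ± 0.043 (adjusted p = 1.6e-13). Tbx2 was at 138, 149 and 137 CPM in Cap-L and at 243, 247 and 242 CPM in Cap-B, a log2 fold change of 0.81 ± 0.045 (adjusted p = 4.4e-11). Neither gene had overlapping groups. Tbx4, a low gene with 57 to 98 counts in these 6 libraries, rose from 2.51 ± 0.448 CPM (SD, n = 3) in Cap-L to 3.99 ± 0.157 CPM in Cap-B (log2 fold change 0.69 ± 0.14, adjusted p = 0.00071 by edgeR).

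In all, 5 of the 7 tested members were called higher in Cap-B and none was called lower, where a call needed an adjusted p under 0.05 together with a log2 fold change beyond 0.5 in either direction. Among 20653 genes tested, 17.5% of all genes were called, 10.4% higher and 7.10% lower, and for 52.4% all libraries of 1 part lay above all of the other. The median log2 fold change of the 7 members was 0.81, and that of all genes was -0.01. Tbx22, the palate gene, had an adjusted p of 0.00040 but a log2 fold change of 0.33 ± 0.064, under the limit on the fold. Tbx1 was at 14.1, 15.3 and 13.3 CPM in Cap-L and at 13.2, 13.9 and 13.2 CPM in Cap-B. Its groups overlapped, and its difference of -0.06 on the log2 scale, with a 95% interval of -0.22 to 0.09, did not pass the test. Skeletal muscle markers summed to 25.7 to 26.7 CPM in Cap-L, where Ckm, Myf5 and Myf6 were at or under 3 counts, and to 252 to 273 CPM in Cap-B. Pericyte and smooth muscle markers summed to 646 to 701 CPM and 715 to 728 CPM in the same groups. Single markers of that list went both ways. Acta2 was at 10.56 to 11.6 CPM in Cap-L and 82.93 to 83.95 CPM in Cap-B. Rgs5 was at 54.54 to 55.29 CPM in Cap-L and 16.65 to 18.95 CPM in Cap-B. The part of either cell type in the T-box differences was not tested.

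Promoter sequence was at hand for 5 of the 9 members, Tbx1, Tbx4, Tbx18, Tbx20 and Tbx22, in 8 RefSeq entries (GRCm38.p6). The windows of Tbx18 and Tbx22 are shown, Tbx18 for its wide side difference and Tbx22 because its side difference took another sign in culture. Each runs 5′ to 3′ over the 250 bases before the RefSeq start, with CpG dinucleotides in capitals.
Tbx18, chr9:87731261-87731510, minus strand: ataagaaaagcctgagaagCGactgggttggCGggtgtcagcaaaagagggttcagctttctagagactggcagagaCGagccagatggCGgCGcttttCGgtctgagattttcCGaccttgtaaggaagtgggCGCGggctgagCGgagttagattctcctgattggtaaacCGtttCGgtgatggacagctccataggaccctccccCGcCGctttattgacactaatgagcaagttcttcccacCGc
Tbx22, chrX:107667714-107667963, plus strand: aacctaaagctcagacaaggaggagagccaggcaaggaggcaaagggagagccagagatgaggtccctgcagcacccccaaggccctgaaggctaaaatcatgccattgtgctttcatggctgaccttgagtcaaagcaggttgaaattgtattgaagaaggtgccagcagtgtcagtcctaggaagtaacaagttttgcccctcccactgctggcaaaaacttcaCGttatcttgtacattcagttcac
The Tbx18 window holds 15 CpG and 54.0% GC, and the Tbx22 window holds 1 CpG and 49.6% GC, against medians of 6 CpG and 52.4% GC over 32851 windows of the same length. The other Tbx22 entries hold 2 and 1 CpG, the Tbx20 entry 22, the Tbx1 entries 17 and 10, and the Tbx4 entry 6. Both strands were searched for the T-box element core GGTGTGA, the homeodomain core TAATTA and the TATA box TATAAA, which occur in 3.33%, 4.84% and 12.4% of all windows. There was 1 match in the 8 windows, a TATA box on the minus strand of the Tbx4 window. A missing match says only that these letters are not in the window.

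The bell parts were compared in the same way. Tbx15 was at 18.9, 19.0 and 21.0 CPM in Bell-L and at 104, 106 and 103 CPM in Bell-B (log2 fold change 2.41 ± 0.044, adjusted p = 9.5e-36). Tbx18 was at 4.34, 4.45 and 4.98 CPM in Bell-L and at 34.7, 34.5 and 34.6 CPM in Bell-B (log2 fold change 2.91 ± 0.071, adjusted p = 1.9e-31). The groups of both genes were again separate. Tbx3 (log2 fold change 1.10 ± 0.040) and Tbx2 (0.80 ± 0.039) were called higher in the buccal part, and so was Tbx22, at 6.62, 7.47 and 7.04 CPM in Bell-L and 12.3, 11.8 and 10.3 CPM in Bell-B (log2 fold change 0.70 ± 0.086, adjusted p = 6.7e-09). Of 7 members tested, 5 were thus called higher in Bell-B and none lower, where 12.9% of all genes were called, 6.00% higher and 6.88% lower, and 45.5% had groups that did not overlap. Tbx1 had a log2 fold change of -0.26 ± 0.054 (adjusted p = 0.00015), under the limit on the fold, and Tbx4 one of 0.06 with a 95% interval of -0.22 to 0.33. Skeletal muscle markers summed to 149.8 to 159.9 CPM in Bell-L and 1117 to 1159 CPM in Bell-B. A majority of a list's tested markers was called higher for skeletal muscle (13 of 14), Schwann cells and glia (4 of 7, 1 lower) and neurons (3 of 4). The part of these cells was not tested.

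After 2 days in vitro the parts still differed, and Tbx1 and Tbx22 took another order. Tbx18 was at 8.25, 9.51 and 7.99 CPM in Cap-L+2D and at 138, 137 and 139 CPM in Cap-B+2D (log2 fold change 4.00 ± 0.056, adjusted p = 3.3e-26). Tbx15 was at 31.9, 32.2 and 30.3 CPM in Cap-L+2D and at 228, 234 and 228 CPM in Cap-B+2D (log2 fold change 2.86 ± 0.043, adjusted p = 1.2e-25). All buccal libraries exceeded all lingual ones for both genes. Tbx1, whose groups had overlapped in the fresh cap parts, was at 8.74, 8.25 and 7.82 CPM in Cap-L+2D and at 24.9, 25.9 and 26.4 CPM in Cap-B+2D (log2 fold change 1.64 ± 0.068, adjusted p = 1.2e-16). Tbx22 went the other way, with 16.4, 16.1 and 14.6 CPM in Cap-L+2D and 10.9, 11.2 and 9.71 CPM in Cap-B+2D (log2 fold change -0.57 ± 0.076, adjusted p = 5.9e-07). Neither gene had overlapping groups in culture. Tbx3 (0.73 ± 0.040) and Tbx4 (0.55 ± 0.14) were also called higher in Cap-B+2D, so that 5 of the 7 tested members were called higher and 1 lower, where 25.1% of all genes were called, 12.5% higher and 12.5% lower, and 59.1% had groups that did not overlap. The call of Tbx4 was lost without Cap-B+2D replicate 2 or without Cap-L+2D replicate 3, at log2 fold changes of 0.44 and 0.47. Tbx2 had a log2 fold change of 0.31 ± 0.037 (adjusted p = 1.1e-07), under the limit on the fold. Marker lists moved with side in culture too. A majority of the list was called higher for skeletal muscle (13 of 13), Schwann cells and glia (3 of 5, 2 lower) and neurons (4 of 5). It was called lower for epithelium (8 of 10, 1 higher), endothelium (7 of 8), cartilage (4 of 5, 1 higher) and bone (6 of 6). Pericyte and smooth muscle markers were split, with 3 called higher and 4 lower of 9. Their sum was 1164 to 1235 CPM in Cap-L+2D and 1812 to 1972 CPM in Cap-B+2D. Skeletal muscle markers summed to 383 to 411 CPM in Cap-L+2D and 4586 to 4902 CPM in Cap-B+2D, endothelial ones to 438 to 443 CPM in Cap-L+2D and 182 to 188 CPM in Cap-B+2D, and bone ones to 2311 to 2342 CPM in Cap-L+2D and 562 to 583 CPM in Cap-B+2D. The part of these cells in the T-box differences was not tested.

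**Figure D2:**
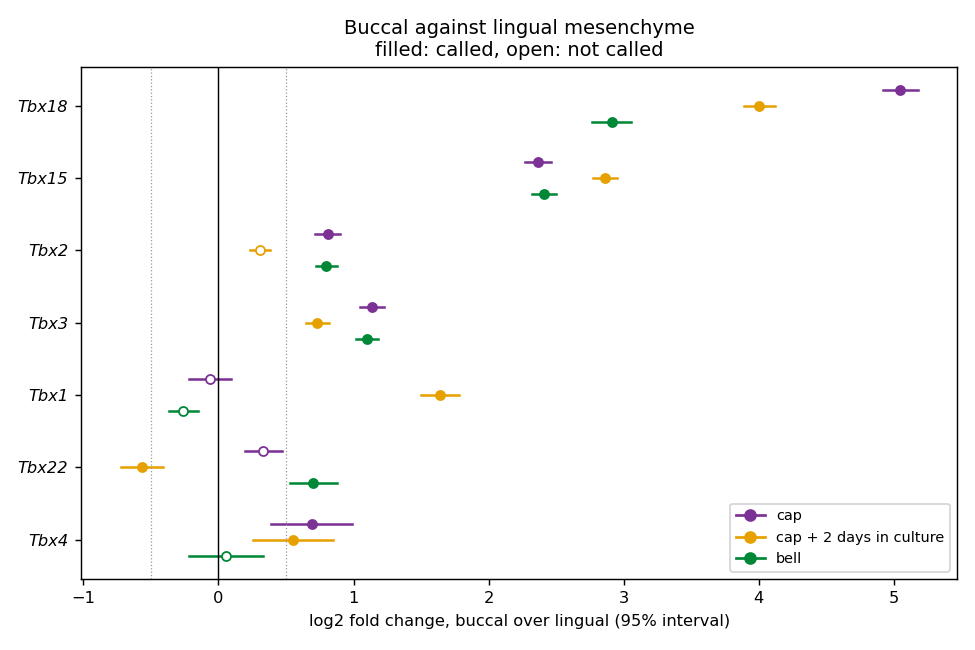
Log2 fold change of the buccal over the lingual part for the tested T-box members at the cap stage, after 2 days in culture and at the bell stage, with 95% intervals as bars. Tbx18 lies at 5.05 at the cap stage, 4.00 in culture and 2.91 at the bell stage, and Tbx1 lies at -0.06, 1.64 and -0.26.

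Whether the side difference itself changed was tested with an interaction term over 12 libraries, called at an adjusted p under 0.05 with no limit on the fold. From cap to bell, the side difference of Tbx18 changed by -2.14 ± 0.10 on the log2 scale (adjusted p = 1.9e-16). That of Tbx4 changed by -0.64 ± 0.20 (adjusted p = 0.013) and that of Tbx22 by 0.36 ± 0.11 (adjusted p = 0.0096). These are 3 of the 7 members tested, where 32.5% of all genes were called, 14.5% higher and 18.0% lower. The changes of Tbx15 (0.04, 95% interval -0.09 to 0.17), Tbx3 (-0.04, -0.16 to 0.07), Tbx2 (-0.01, -0.15 to 0.12) and Tbx1 (-0.20, -0.40 to -0.00) did not pass the test. In a fit of all 24 libraries, Tbx18 alone stayed called, and Tbx4 and Tbx22 had adjusted p-values of 0.080 and 0.061. From the fresh to the cultured cap parts, the side difference changed by 1.70 ± 0.10 for Tbx1, 0.49 ± 0.060 for Tbx15, -1.05 ± 0.093 for Tbx18, -0.90 ± 0.099 for Tbx22, -0.50 ± 0.059 for Tbx2 and -0.41 ± 0.058 for Tbx3. These 6 of the 7 members had adjusted p-values of 1.4e-06 or lower, where 35.5% of all genes were called, 16.0% higher and 19.5% lower. The tests for stage and for culture share the cap libraries. The interaction with stage was also called, for a majority of the marker list, higher for epithelium (8 of 10, 1 lower), neurons (4 of 4), cartilage (5 of 5) and bone (5 of 5). It was called lower for skeletal muscle (8 of 14, 2 higher) and blood and macrophages (4 of 6). The interaction with culture was called higher for neurons (3 of 5). It was called lower for epithelium (7 of 10, 2 higher), pericytes and smooth muscle (5 of 9, 1 higher) and endothelium (6 of 8). The same held for Schwann cells and glia (4 of 7, 1 higher), bone (4 of 6, 1 higher) and dental mesenchyme (6 of 10, 2 higher). Their part in the T-box interactions was not tested.

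The members were then followed from cap to bell within each part. Tbx1 rose in both parts, and Tbx15, Tbx22 and Tbx3 fell in both. In the buccal part Tbx18 went from 175, 180.0 and 179.5 CPM to 34.7, 34.5 and 34.6 CPM, a log2 fold change, bell over cap, of -2.37 ± 0.037 (adjusted p = 6.1e-31). In the lingual part, where it was low at both stages, its log2 fold change was -0.24 with a 95% interval of -0.47 to -0.02 (adjusted p = 0.071). Tbx15 had log2 fold changes of -1.38 ± 0.056 (adjusted p = 1.7e-16) in the lingual and -1.33 ± 0.033 (adjusted p = 8.1e-26) in the buccal part. Tbx22 fell by 1.60 and 1.22 on the log2 scale in the lingual and buccal parts, and Tbx3 fell by 0.73 and 0.76. Tbx1 went from 14.1, 15.3 and 13.3 CPM in Cap-L to 34.8, 31.1 and 35.8 CPM in Bell-L (log2 fold change 1.26 ± 0.069, adjusted p = 8.4e-14). In the buccal part it went from 13.2, 13.9 and 13.2 CPM to 29.2, 26.4 and 29.3 CPM (1.07 ± 0.061, adjusted p = 4.7e-16). No bell library overlapped the cap libraries for Tbx1 in either part. In the lingual part 1 of 7 tested members was called higher and 3 lower, where 20.0% of all genes were called, 14.2% higher and 5.78% lower, and 55.9% had groups that did not overlap. In the buccal part 1 was called higher and 4 lower, where 18.7% of all genes were called, 12.0% higher and 6.73% lower, and 55.4% did not overlap. Tbx2 fell by 0.33 in the lingual and 0.34 in the buccal part on the log2 scale, at adjusted p-values of 8.9e-07 and 8.0e-09 and under the limit on the fold. Markers of other cells moved with stage. From Cap-L to Bell-L, a majority of the list was called higher for skeletal muscle (13 of 13) and pericytes and smooth muscle (5 of 9, 1 lower). Markers of cartilage (3 of 5) and bone (4 of 6) were called lower. Blood and macrophage markers were split, with 4 called higher and 2 lower of 6. They summed to 463 to 521 CPM in Cap-L and 116 to 124 CPM in Bell-L. From Cap-B to Bell-B, a majority of the list was called higher for skeletal muscle (14 of 14) and epithelium (8 of 10). The skeletal muscle sum was 25.7 to 26.7 CPM in Cap-L and 149.8 to 159.9 CPM in Bell-L, and 252 to 273 CPM in Cap-B and 1117 to 1159 CPM in Bell-B, and the part of these cells in the stage changes was not tested.

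Cultured parts were compared with the fresh cap part of the same side, which shares its control libraries with the stage comparison. In the buccal part, the log2 fold changes, cultured over fresh, were -0.39 ± 0.032 for Tbx18, -0.21 ± 0.032 for Tbx15, 0.03 ± 0.038 for Tbx2 and 0.06 ± 0.034 for Tbx3, none over the limit on the fold. Tbx1 was called higher, by 0.92 ± 0.062 (adjusted p = 9.0e-15), and Tbx22 lower, at -1.34 ± 0.068 (adjusted p = 5.7e-18), which is 2 of 7 members where 34.5% of all genes were called, 17.9% higher and 16.6% lower, and 69.0% had groups that did not overlap. In the lingual part, Tbx18 (0.65 ± 0.099) and Tbx2 (0.53 ± 0.044) were called higher, and Tbx1 (-0.79 ± 0.082) and Tbx15 (-0.71 ± 0.053) lower, which is 4 of 7 members where 35.4% of all genes were called, 19.6% higher and 15.9% lower, and 67.5% had groups that did not overlap. The call of Tbx2 was lost without Cap-L replicate 1 or without Cap-L replicate 3, at log2 fold changes of 0.50 and 0.49. Tbx1 thus moved in opposite directions in the cultured parts. With culture, a majority of the marker list in the buccal part was called higher for skeletal muscle (14 of 14), neurons (3 of 5, 1 lower) and bone (4 of 6, 2 lower). It was called lower for epithelium (9 of 10, 1 higher), endothelium (8 of 8) and Schwann cells and glia (5 of 7, 1 higher). Among bone markers, Runx2 was at 238 to 244 CPM in Cap-B and 121 to 124 CPM in Cap-B+2D. Sp7 was at 60.6 to 62.9 CPM in Cap-B and 38.7 to 41.0 CPM in Cap-B+2D. In the lingual part a majority was called higher for skeletal muscle (12 of 13), pericytes and smooth muscle (6 of 9, 1 lower) and bone (4 of 6, 1 lower). It was called lower for epithelium (7 of 10) and Schwann cells and glia (4 of 7, 1 higher). Endothelial markers summed to 467 to 477 CPM in Cap-B and 182 to 188 CPM in Cap-B+2D, and to 529.6 to 538 CPM in Cap-L and 438 to 443 CPM in Cap-L+2D. The part of these cells in the culture changes was not tested.

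**Figure D3:**
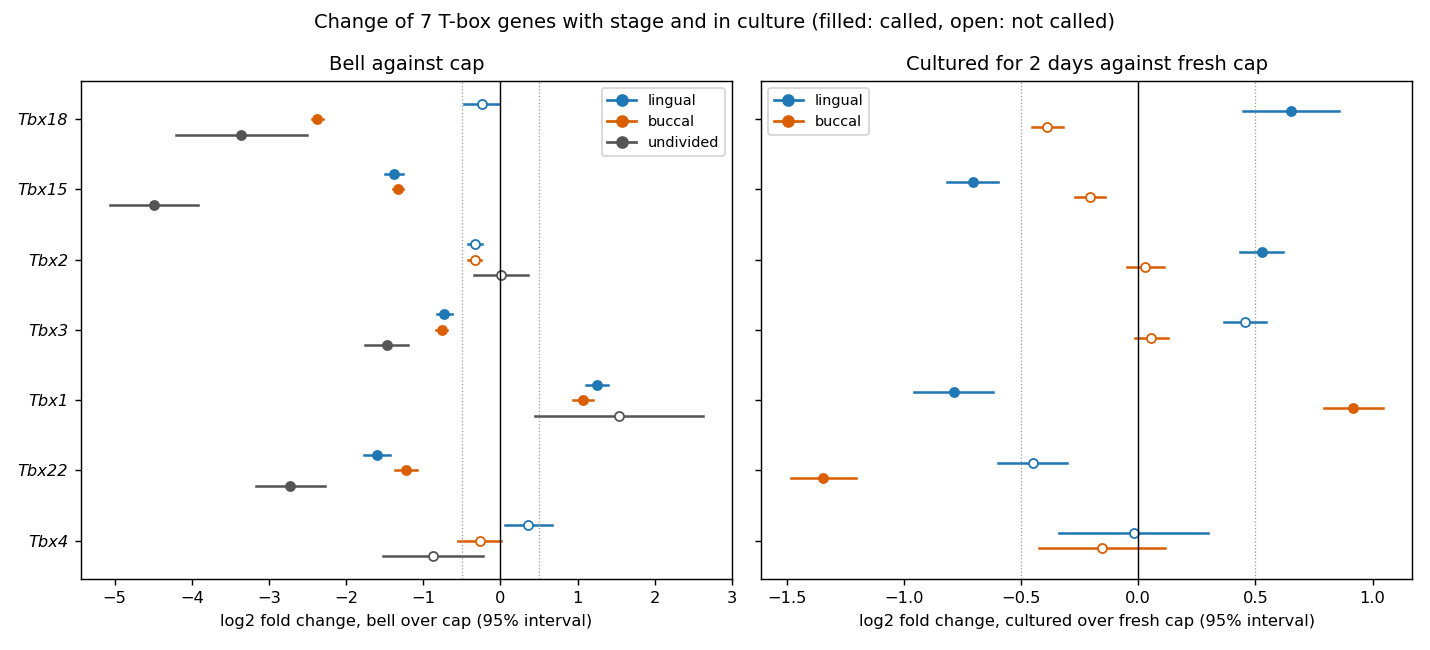
Log2 fold change of the tested T-box members from the cap to the bell stage and from the fresh to the cultured cap part, with 95% intervals as bars. Buccal Tbx18 lies at -2.37 for the bell stage and at -0.39 for culture, and Tbx1 in culture lies at -0.79 in the lingual and at 0.92 in the buccal part.

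Bell parts and cultured parts, both 2 days past the cap stage by the labels, were also compared with each other. Tbx18 was at 138 ± 0.935 CPM (SD, n = 3) in Cap-B+2D and 34.6 ± 0.102 CPM in Bell-B, a log2 fold change, cultured over bell, of 1.98 ± 0.037 (adjusted p = 5.8e-30 by edgeR). Tbx15 (1.12 ± 0.033) and Tbx3 (0.82 ± 0.035) were also called higher in the cultured buccal part, which made 3 of 7 members called higher and none lower, where 31.8% of all genes were called, 15.5% higher and 16.3% lower, and 66.8% had groups that did not overlap. In the cultured lingual part, Tbx3 (1.19 ± 0.046), Tbx22 (1.15 ± 0.084), Tbx18 (0.89 ± 0.10), Tbx2 (0.86 ± 0.044) and Tbx15 (0.68 ± 0.058) were called higher than in Bell-L, and Tbx1 (-2.04 ± 0.075) lower. These are 6 of 7 members, where 31.2% of all genes were called, 14.4% higher and 16.8% lower, and 67.3% had groups that did not overlap. In the cultured buccal part, a majority of the marker list was, against Bell-B, called higher for skeletal muscle (12 of 14, 1 lower), neurons (3 of 5) and cartilage (3 of 5, 2 lower). It was called lower for epithelium (9 of 10), endothelium (8 of 8) and Schwann cells and glia (6 of 7, 1 higher). In the cultured lingual part it was, against Bell-L, called higher for skeletal muscle (11 of 13, 1 lower), cartilage (4 of 5) and bone (5 of 6). It was called lower for epithelium (9 of 10) and Schwann cells and glia (6 of 7), and the part of these cells was not tested.

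Ordered by group mean, Tbx18 ran from Cap-B through Cap-B+2D, Bell-B, Cap-L+2D, Cap-W, Cap-L and Bell-L to Bell-W, and of these neighbours only Cap-W and Cap-L had overlapping libraries. Tbx15 ran from Cap-B through Cap-B+2D, Bell-B, Cap-L, Cap-W, Cap-L+2D and Bell-L to Bell-W, with only Cap-W and Cap-L+2D overlapping. The highest group mean was 312-fold the lowest for Tbx18 and 148-fold for Tbx15, against 13.6-fold for Tbx22, 4.10-fold for Tbx1, 3.80-fold for Tbx3, 3.32-fold for Tbx4 and 2.45-fold for Tbx2. Tbx2 ran from Cap-B+2D through Cap-B, Cap-L+2D, Bell-B, Cap-L, Bell-L and Bell-W to Cap-W, in which Cap-B+2D overlapped Cap-B, Cap-L+2D overlapped Bell-B, and Bell-W overlapped both of its neighbours. Tbx3 ran from Cap-B+2D through Cap-B, Cap-W, Cap-L+2D, Bell-B, Cap-L and Bell-W to Bell-L, in which Cap-L+2D overlapped Bell-B and Bell-W overlapped Bell-L. Tbx22 ran from Cap-B through Cap-L, Cap-L+2D, Cap-W, Bell-B, Cap-B+2D and Bell-L to Bell-W, and each of the 4 groups from Cap-L+2D to Cap-B+2D overlapped the next of them. Tbx4 ran from Cap-B through Cap-B+2D, Bell-B, Bell-L, Cap-L, Cap-L+2D and Cap-W to Bell-W, and its neighbours overlapped except Bell-L with Cap-L and Cap-W with Bell-W. Tbx1 ran from Bell-L through Bell-W, Bell-B, Cap-B+2D, Cap-L, Cap-B and Cap-W to Cap-L+2D, in which Bell-W overlapped both neighbours, Cap-L overlapped Cap-B and Cap-W overlapped Cap-L+2D.

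In the undivided mesenchyme, Tbx15 was at 40.8, 30.8 and 46.7 CPM in Cap-W and at 2.27, 1.59 and 1.45 CPM in Bell-W. Tbx18 was at 7.95, 3.59 and 6.17 CPM in Cap-W and at 0.654, 0.544 and 0.517 CPM, from 17, 13 and 16 counts, in Bell-W. Tbx22 was at 14.7, 12.1 and 11.8 CPM in Cap-W and at 1.92, 2.18 and 1.78 CPM in Bell-W (log2 fold change, bell over cap, -2.73 ± 0.19, adjusted p = 0.00030). The groups of these 3 genes did not overlap, as for 36.7% of all genes. With Tbx3, 4 of 7 members were called lower at the bell stage and none higher, where 14.5% of all genes were called, 10.3% higher and 4.21% lower. Without Bell-W replicate 3 the log2 fold changes were -4.36 for Tbx15, -3.29 for Tbx18, -2.66 for Tbx22 and -1.57 for Tbx3, all still called. Tbx2 had a log2 fold change of 0.01 with a 95% interval of -0.35 to 0.36, and Tbx4 one of -0.88 ± 0.28 (adjusted p = 0.073). From Cap-W to Bell-W, a majority of the marker list was called higher for endothelium (8 of 8) and bone (3 of 5), and lower for cartilage (3 of 5). Those of pericytes and smooth muscle were called higher for 4 of 9. Blood and macrophage markers were split, with 4 called higher and 2 lower of 6. They summed to 816 to 1055 CPM in Cap-W and 84.7 to 108 CPM in Bell-W. Endothelial markers summed to 216 to 226 CPM in Cap-W and 424 to 526 CPM in Bell-W, and cartilage ones to 228 to 252 CPM in Cap-W and 28.5 to 65.8 CPM in Bell-W. The part of these cells in the stage change was not tested.

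For several members the undivided level lay outside the range of the 2 parts. This comparison was added after the values were seen, and each fit held the 9 libraries of 1 stage. At the bell stage, Tbx15 was lower in Bell-W than in Bell-L by a log2 fold change of -3.48 ± 0.13 (adjusted p = 5.6e-07) and than in Bell-B by -5.89 ± 0.13 (adjusted p = 3.3e-09). Against Bell-L and Bell-B in turn, the log2 fold changes were -3.01 ± 0.12 and -5.92 ± 0.11 for Tbx18, -1.85 ± 0.13 and -2.56 ± 0.13 for Tbx22, and -1.41 ± 0.17 and -1.47 ± 0.17 for Tbx4, all called. Tbx2 and Tbx3 had log2 fold changes of -0.11 and 0.05 against Bell-L, neither called, and were lower than in Bell-B (-0.90 ± 0.12 and -1.05 ± 0.085). This made 4 of 7 members called lower than in Bell-L, where 10.3% of all genes were called, 4.20% higher and 6.07% lower, and 35.2% had groups that did not overlap, and 6 called lower than in Bell-B, where 9.70% of all genes were called, 4.01% higher and 5.69% lower, and 33.1% had groups that did not overlap.

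At the cap stage, Tbx18 in Cap-W had a log2 fold change of 0.10 against Cap-L, with a 95% interval of -0.39 to 0.60, and one of -4.94 ± 0.21 against Cap-B (adjusted p = 1.6e-07). Tbx3 in Cap-W, at 123.4, 106.8 and 108.4 CPM, lay between the parts. Tbx22 was lower in Cap-W than in both parts, by -0.71 ± 0.097 and -1.04 ± 0.098. Other members had means below both parts too. Tbx2 had log2 fold changes of -0.42 ± 0.084 (edgeR adjusted p = 0.0040, under the limit on the fold) and -1.23 ± 0.085. Tbx1 had -0.49 and -0.43, both under that limit (adjusted p = 0.028 and 0.041 by edgeR). Tbx15 had -0.35 against Cap-L, which did not pass the test (adjusted p = 0.052 by edgeR), and -2.72 against Cap-B. Against Cap-L, 1 of 7 members was called higher and 1 lower, where 18.6% of all genes were called, 7.99% higher and 10.6% lower, and 43.0% had groups that did not overlap, and against Cap-B 5 were called lower, where 24.4% of all genes were called, 9.99% higher and 14.4% lower, and 51.6% had groups that did not overlap. Skeletal muscle markers summed to 16.9 to 23.9 CPM in Cap-W and 12.4 to 26.3 CPM in Bell-W. Endothelial markers summed to 216 to 226 CPM in Cap-W, 529.6 to 538 CPM in Cap-L and 467 to 477 CPM in Cap-B. Against Cap-L, a majority of the marker list was called lower for endothelium (8 of 8) and bone (5 of 5) in Cap-W. Against Cap-B it was called higher for epithelium (8 of 10, 1 lower) and cartilage (4 of 5). It was called lower for skeletal muscle (12 of 12), pericytes and smooth muscle (5 of 9, 1 higher), endothelium (8 of 8), Schwann cells and glia (6 of 7) and bone (3 of 5). In Bell-W it was called lower for skeletal muscle (12 of 14) against Bell-L. Against Bell-B it was called lower for skeletal muscle (14 of 14), Schwann cells and glia (5 of 7, 1 higher) and cartilage (3 of 5). The part of these cells in the differences of undivided mesenchyme was not tested.

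Tbx1 is given with its markers, since it is known from epithelium as well as from head muscle progenitors. In Bell-W it was at 18.5, 15.2 and 52.3 CPM, and the highest of these is replicate 3, the library with 2316 CPM of epithelial markers. Its log2 fold change from Cap-W, 1.53 ± 0.47, did not pass the test (adjusted p = 0.066), and without that library it was 0.76 (adjusted p = 0.076). Without that library Tbx1 was called lower in Bell-W than in Bell-L (log2 fold change -1.01, adjusted p = 5.1e-07) and than in Bell-B (-0.75, adjusted p = 1.1e-05), and with it neither difference passed. Summed epithelial markers were 543 to 614 CPM in Cap-L and 933 to 983 CPM in Bell-L, and 362 to 381 CPM in Cap-B and 658 to 684 CPM in Bell-B, higher at the bell stage as Tbx1 was. In Cap-B+2D they summed to 94.0 to 94.4 CPM, below every other group, while Tbx1 was at 24.9, 25.9 and 26.4 CPM. Skeletal muscle markers summed to 4586 to 4902 CPM there, against 252 to 273 CPM in Cap-B and 383 to 411 CPM in Cap-L+2D. At the bell stage they were also higher, at 149.8 to 159.9 CPM in Bell-L and 1117 to 1159 CPM in Bell-B. In Cap-L they summed to 25.7 to 26.7 CPM. In Cap-L+2D, epithelial markers summed to 366 to 402 CPM and Tbx1 was at 8.74, 8.25 and 7.82 CPM. Both were lower than in Cap-L, where skeletal muscle markers were lower than in Cap-L+2D. The 3 genes whose pattern over the 24 libraries was most like that of Tbx1 were Vwa2 (Pearson's r = 0.943), Plekhs1 (0.908) and Lama3 (0.903), of which Lama3 encodes a laminin chain of epithelial basement membranes. The part of epithelial and muscle cells in the Tbx1 values was not tested.

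**Figure D4:**
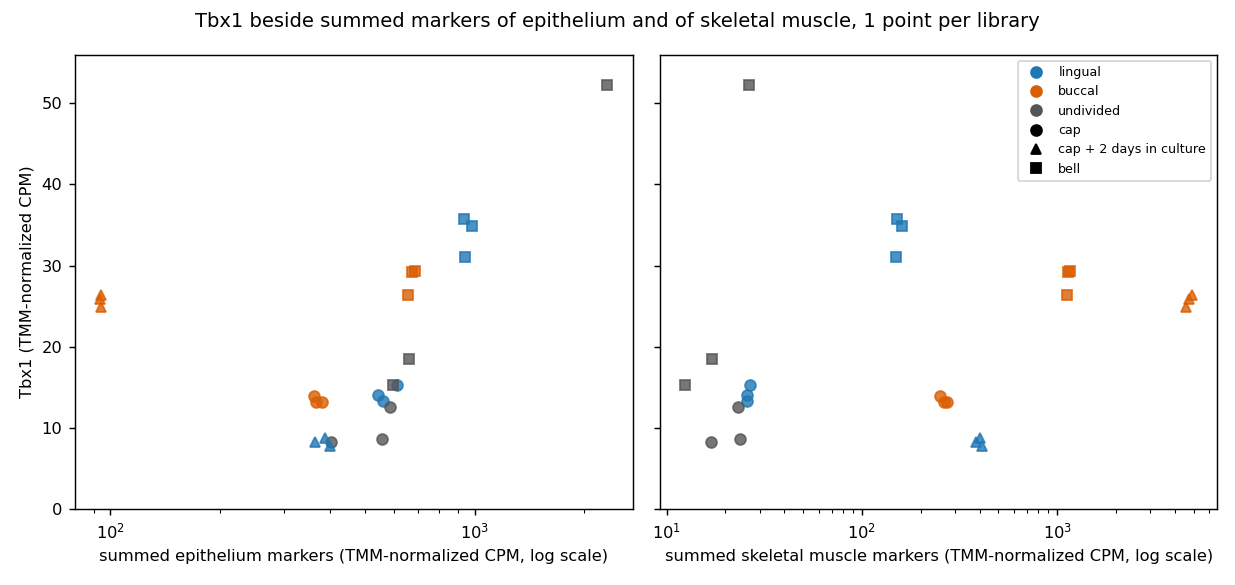
Tbx1 level in each library, in TMM-normalized CPM, against the summed level of the 10 epithelial and the 14 skeletal muscle markers, in CPM, with a point for each library marked by its group. Bell-W replicate 3 lies at 52.3 CPM of Tbx1 and 2316 CPM of epithelial markers, and the Cap-B+2D libraries lie apart at 94.0 to 94.4 CPM of epithelial markers.

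Some members are neighbours on a chromosome (GRCm39, coordinates of the deposited exons). Tbx2 (chr11:85723377-85732774) lies 44473 bases before Tbx4 (chr11:85777248-85806923), and Tbx3 (chr5:119808734-119822789) lies 147943 bases before Tbx5 (chr5:119970733-120023284), all on the plus strand. Members of a pair differed in level. In Cap-B, Tbx2 had 67.2 CPM per kb where Tbx4 had 1.17, and Tbx3 had 21.5 where Tbx5 had 0, 0 and 2 counts. The others are Tbx1 (chr16:18399729-18409421, minus), Tbx15 (chr3:99147697-99261575, plus), Tbx18 (chr9:87584853-87613313, minus), Tbx20 (chr9:24629434-24685599, minus) and Tbx22 (chrX:106711570-106732584, plus). Strand was ignored in the counting and read pairs on several genes were left out, so shared exon bases are undercounted. Tbx18 shares 20.6% of its exon bases with D030062O11Rik and Tbx3 shares 6.76% with Tbx3os1 and another gene, in each case on the opposite strand, and the other 7 members share none.

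Tbx3os1, on the strand opposite Tbx3, did not follow Tbx3 in every comparison. It was at 62.3, 59.4 and 61.5 CPM in Cap-L and at 96.6, 96.3 and 94.6 CPM in Cap-B, higher in the buccal part by a log2 fold change of 0.67 ± 0.045 (adjusted p = 6.6e-10). At the bell stage it was at 25.4, 27.1 and 26.5 CPM in Bell-L and at 28.3, 29.5 and 27.2 CPM in Bell-B, a log2 fold change of 0.11 ± 0.053 (adjusted p = 0.12). The groups were far apart at the cap stage and close together at the bell stage. The interaction of side with stage was -0.57 ± 0.065 for Tbx3os1 (adjusted p = 3.5e-08) and -0.04 ± 0.057 for Tbx3 (adjusted p = 0.62). From cap to bell Tbx3os1 fell by 1.77 on the log2 scale in the buccal part, where Tbx3 fell by 0.76. D030062O11Rik, opposite Tbx18, was at 1.81, 1.34 and 1.60 CPM in Cap-B, where Tbx18 was highest too, and at 0.0278 CPM or less in Cap-L. Reads of genes on opposite strands cannot be told apart in these counts.

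**Figure D5:**
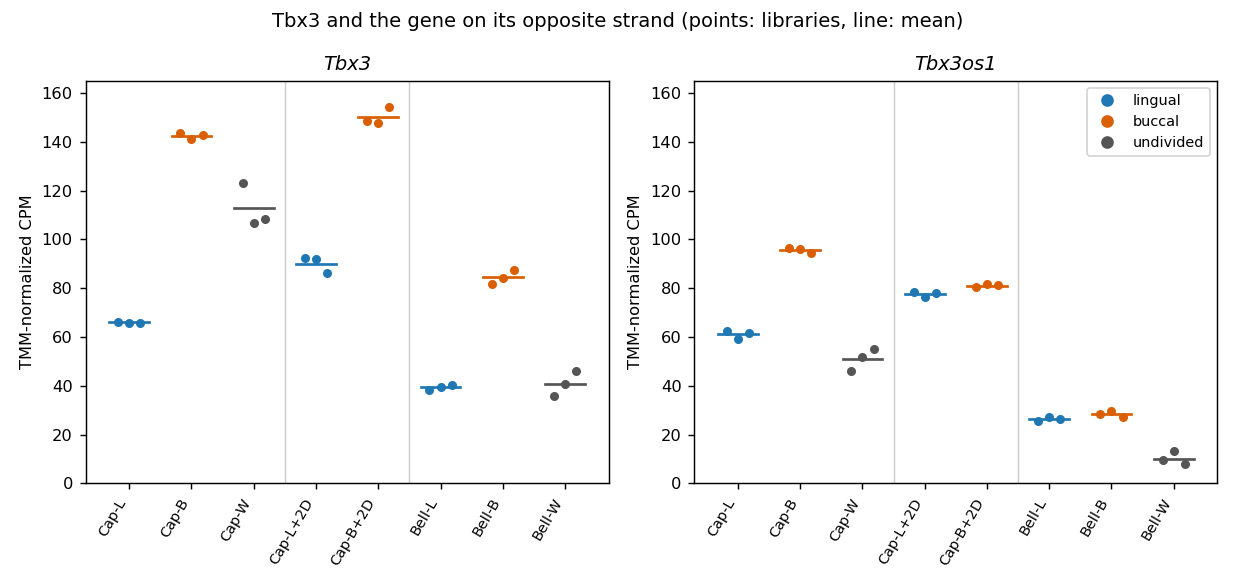
Level of Tbx3 and of Tbx3os1, on the strand opposite it, in each library, in TMM-normalized CPM, by group, with a point for each library. Tbx3 had means of 84.6 CPM in Bell-B and 39.5 CPM in Bell-L, and Tbx3os1 had 28.4 and 26.3 CPM.

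Tbx5 and Tbx20 were near or under a floor of 3 counts. Tbx5, the forelimb and heart gene, had 6 counts in Cap-B+2D replicate 1 and at most 2 in every other library. Tbx20, the heart gene, reached 5 counts in Cap-B+2D replicate 3 and had none in any Bell-L or Bell-W library. A count of 0 allows a level of up to 0.0764 to 0.146 CPM, depending on the library and for counting error only. Of the other 8 T-box genes of the mouse, Mga, which also carries a basic helix-loop-helix domain, had group means of 102 to 192 CPM. Tbx6 had 1.47 to 2.85 CPM and T (brachyury) 0.315 to 1.38 CPM, while Tbr1, Eomes, Tbx10, Tbx19 and Tbx21 had group means of at most 0.696 CPM. At the cap stage the 3 that could be tested were called higher in Cap-B, Mga by 0.54 ± 0.057, Tbx6 by 0.56 ± 0.14 and T by 0.70 ± 0.24 on the log2 scale, where 10.4% of all genes were called higher. At the bell stage 2 of 4 tested were called higher in the buccal part, T (0.90 ± 0.25) and Tbx21 (2.56 ± 0.58), where 6.00% of all genes were called higher, and Mga (-0.09 ± 0.033) and Tbx6 (-0.21 ± 0.21) were not called. In culture none of 6 was called higher and Eomes was called lower (-1.77 ± 0.38), where 12.5% of all genes were called lower, and Mga had a log2 fold change of 0.06 ± 0.042.

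Genes known to act upstream of T-box genes, to bind T-box proteins or to be regulated by them were described as lists. Of 8 tested upstream genes at the cap stage, 5 were called lower in Cap-B and none higher, with a median log2 fold change of -0.96 against -0.01 for all genes, of which 7.10% were called lower and 10.4% higher. The largest were Cyp26a1 (-2.97 ± 0.18) and Cyp26b1 (-1.52 ± 0.047), whose products degrade retinoic acid, and Aldh1a2 (-1.11 ± 0.045), whose product makes it. At the bell stage 4 of 9 were called lower, led by Cyp26a1 (-1.55 ± 0.090), the growth factor gene Bmp2 (-1.43 ± 0.070) and Cyp26b1 (-1.15 ± 0.036), and the forkhead gene Foxc1 was called higher (0.72 ± 0.12). The median of the list was -0.39 there, and 6.88% of all genes were called lower and 6.00% higher. In culture 7 of 9 were called lower in the buccal part and none higher, with a median of -2.06, where 12.5% of all genes were called lower and 12.5% higher. Of 9 tested partners at the cap stage, the Groucho gene Tle1 was called higher in Cap-B (0.78 ± 0.041), and its relative Tle4 (-0.56 ± 0.047) and the homeobox gene Msx2 (-0.52 ± 0.18) were called lower, with a median over the list of 0.08, where 10.4% of all genes were called higher and 7.10% lower. Of 7 tested targets, Gja5, a gap junction gene, was called higher in Cap-B (0.90 ± 0.12), and the homeobox gene Alx4 (-1.76 ± 0.053) and the cadherin gene Cdh1 (-0.75 ± 0.068) were called lower, with a median of -0.10, where 10.4% of all genes were called higher and 7.10% lower. Cdh1 marks epithelium, whose markers summed to less in Cap-B than in Cap-L. From Cap-W to Bell-W, 4 of 7 targets were called higher, led by the cell cycle inhibitor gene Cdkn1a (2.03 ± 0.34), Gja5 (1.94 ± 0.50) and the Notch ligand gene Dll1 (1.13 ± 0.26), and Alx4 was called lower (-3.43 ± 0.43). The median of the targets was 1.02, and 10.3% of all genes were called higher and 4.21% lower. In the same comparison, 1 of 9 tested partners was called higher and 5 lower. Endothelial markers were called higher for 8 of 8, and their part in the target changes was not tested. Targets were called higher for 2 and lower for 2 of 7 in Bell-B against Bell-L, and for 3 and 3 in Cap-B+2D against Cap-L+2D. From Cap-B to Bell-B, 6 of 7 were called higher and 1 lower, where 12.0% and 6.73% of all genes were.

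Among 17951 genes with a mean of at least 1 CPM, the gene whose pattern over the 24 libraries was most like that of Tbx15 was Tbx18 (Pearson's r = 0.947). Those most like Tbx18 were A830082K12Rik (0.964), the nuclear receptor gene Nr2f2 (0.963) and Cdon (0.962), which encodes a coreceptor of hedgehog signaling. The nearest to Tbx2 was Pde3a (0.954), to Tbx3 Tenm4 (0.940), to Tbx4 Osr1 (0.909) and to Tbx22 Tmem26 (0.935). These correlations are descriptions, since the 3 libraries of a group share their tissue and treatment.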

How the data were processed

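The authors deposited raw read counts per gene, made with featureCounts 2.0.0 on Ensembl GRCm39 release 107 exons, for paired reads, without strand and without reads on several genes or places. The sources differ on the library kit and the aligner. Gene symbols came from GENCODE vM39, which named 56017 of the 56748 genes. Depth was 20581720 to 39266497 counts per library. From these counts, CPM with TMM factors were computed in edgeR 4.0.16 (R 4.3.3). Groups were compared with edgeR's quasi-likelihood test after its expression filter, with Benjamini-Hochberg adjustment over all genes tested. Fits of the sides, of the undivided stages and of the interactions held only the groups compared. Stage, culture and bell against culture comparisons within a part used 1 fit of its fresh cap, bell and cultured groups, 9 libraries. Undivided groups were compared with parts in 1 fit per stage. Calls needed an adjusted p under 0.05 together with a log2 fold change beyond 0.5 in either direction, and interactions needed the adjusted p alone. Errors are SE for log2 fold changes and SD for levels. All members were named, and of each list of upstream, partner and target genes at most the 3 with the largest called change in a direction. Members and lists were chosen with earlier results of these data known. No library pair of a group agreed within sampling noise. With 3 libraries against 3, an exact permutation test cannot go below p = 0.1, so none was used. Counts were simulated with the estimated dispersions, and 200 well-counted genes were given a log2 change of 1.5 in either direction. For the cap sides, the test recovered 200 of 200 changed genes with 2 false calls. For the undivided stages it recovered 163 of 200 with 9, and for the interaction of side with stage 200 of 200 with 20. Recovery of smaller changes, such as several of the member calls, and of low genes was not tested. Alternatives were DESeq2 1.42.0, other scalings, filters and limits, a replicate block, 1 fit of all libraries and leaving out each library.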

Additional observations from a re-analysis of the deposited data

Results flagged for a closer look

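The side difference, buccal over lingual, of 9 cases differed between conditions by the test of the interaction term, and these are values without explanation. Between the cap and the bell stage, the side difference of Tbx18 changed by -2.14 on the log2 scale (edgeR adjusted p = 1.9e-16), that of Tbx4 by -0.64 (0.013) and that of Tbx22 by 0.36 (0.0096). Between the fresh and the cultured cap parts, it changed by 1.70 for Tbx1 (2.4e-14), 0.49 for Tbx15 (1.0e-07), -1.05 for Tbx18 (1.7e-10), -0.90 for Tbx22 (1.3e-08), -0.50 for Tbx2 (4.0e-08) and -0.41 for Tbx3 (1.4e-06). All groups hold 3 libraries, so no single library was tested as an outlier.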

How the results depend on the processing

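The number of members called stayed within 1.5 times its main value in 236 of 248 recomputations. A log2 limit of 1 gave 3 members on the cap, bell and culture sides and in the lingual bell against culture comparison, 1 for buccal culture, and 0 for lingual culture and for Cap-W against Cap-L. With no limit there were 5 for buccal bell against culture, 4 for buccal culture and 4 for Cap-W against Cap-L. In 1 fit of all 24 libraries, 1 member was called for side by stage. Leaving out 1 library gave 5 to 6 members on the culture side, 3 to 5 for lingual culture, 2 to 4 for side by stage, 2 to 4 for Cap-W against Cap-L, 5 to 6 for Cap-W against Cap-B, 4 to 5 for Bell-W against Bell-L and 6 to 7 for Bell-W against Bell-B, and changed no other count of members. Over all genes, the undivided stage comparison called 1758 to 3057 genes when 1 library was left out, against 3037, the lowest without Cap-W replicate 3. Tbx1 in the undivided stage comparison was called by DESeq2 (1.52, adjusted p = 0.0038) and in 1 fit of all 24 libraries (1.55, 0.00013), where Tbx4 was called too (-0.86, 0.00048).

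Single members kept direction and call in 1652 of 1736 recomputations, and 23 turned in sign, none of them called in the main test. With 1 library left out, the log2 value ran from -0.75 to 0.33 for Tbx1 in Bell-W against Bell-B, -1.01 to 0.068 for Tbx1 in Bell-W against Bell-L, -0.18 to 0.39 for Tbx18 in Cap-W against Cap-L, -0.055 to 0.042 for Tbx2 for side by stage, -0.15 to 0.10 for Tbx2 in the undivided stage comparison, -0.055 to 0.13 for Tbx3 in Bell-W against Bell-L, -0.039 to 0.17 for Tbx4 on the bell side, -0.0033 to 0.23 for Tbx4 for buccal bell against culture, and -0.15 to 0.083 for Tbx4 for lingual culture. Tbx2 for side by stage also turned to 0.014 without the 100 most abundant genes, 0.013 in 1 fit of all libraries and 0.022 without the filter, and Tbx4 for lingual culture to 0.0013 by DESeq2. With a replicate block, Tbx1 in Bell-W against Bell-B turned to -0.13 and Tbx2 in the undivided stage comparison to -0.0040. The cause of these turns was not tested. Replicate numbers did not pair the libraries, with correlations of same-numbered deviations of -0.0466 to 0.0862. The replicate block made Tbx1 a call in the undivided stage comparison (1.33, adjusted p = 0.013) and in Cap-W against Cap-L (-0.51, 0.044), and changed no other call of a member.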
